A study of Mus musculus with 6 samples.

Results

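The genes described here are 9 that encode liver-enriched transcription factors: *Hnf4a*, *Foxa1*, *Foxa2*, *Foxa3*, *Cebpa*, *Cebpb*, *Onecut1*, *Nr5a2* and *Prox1*. They were chosen by gene symbol from factors known to establish and maintain the hepatocyte, with earlier results of these data known. All 9 were among the 23282 genes counted, and all 9 passed the filter on low counts, which kept 14076 genes in all. The comparison asks whether the mRNA of these factors differed in livers with *Tcf7l2* deleted by an albumin-driven Cre, where genes of the pericentral zone were lower.

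Liver RNA was sequenced from 3 *Alb-Cre;Tcf7l2* f/f knockout mice (libraries 7-2, 7-3 and 8-3) and from 3 wild-type *Tcf7l2* f/f littermates (libraries 7-2, 8-1 and 8-3). Both genotypes are C57BL/6 mice (C57BL/6N in the study's methods) that carry *Tcf7l2* alleles floxed at exon 5, and only the knockout also carries Cre recombinase. An albumin promoter drives Cre, so deletion is aimed at hepatocytes. Whether the other cells of the liver keep the gene was not tested. All mice were 12 weeks old by the labels and had gone through a 24 h fast and 24 h of refeeding on normal chow, and the study's methods describe this cross in males. Whole liver was sequenced, so fewer cells of a type and less RNA per cell cannot be told apart.

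Hepatocyte identity rests on a network of transcription factors that bind each other's genes as well as those for plasma proteins and metabolic enzymes. HNF4A is the nuclear receptor at its centre, the FOXA proteins are pioneer factors that open chromatin in the liver primordium, the C/EBP proteins tie differentiation to metabolism and inflammation, and HNF6 (the product of *Onecut1*), LRH-1 (the product of *Nr5a2*) and PROX1 take part from the fetal liver onwards. TCF7L2 is a DNA-binding partner of β-catenin, and Wnt/β-catenin signalling sets the gene programme of the hepatocytes around the central vein.

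The 6 libraries held 60619938 to 133384586 counts, of which the 9 factors took 23120 to 38415 per library. Levels are given as CPM, which are counts scaled to a common library size adjusted by TMM (trimmed mean of M values) factors. *Tcf7l2* itself stood at 3.31, 2.74 and 3.33 CPM in knockout libraries 7-2, 7-3 and 8-3, against 4.88, 6.13 and 6.85 CPM in wild-type libraries 7-2, 8-1 and 8-3. It was lower in each knockout than in each wild-type library (log2 fold change −0.93, SE 0.19), with an adjusted *p*=0.0856 by the quasi-likelihood test of edgeR, over the threshold of 0.05, and 0.00274 from DESeq2. Its counts cover the whole gene and not the floxed exon alone. Major urinary protein (*Mup*) genes took 23.5% to 35.8% of the counts in knockout libraries and 38.9% to 64.4% in wild-type libraries. The counts include multiple alignments, so these shares of counts are not shares of liver mRNA. Albumin (*Alb*), the defining hepatocyte product, ran from 30200 to 42531 CPM in knockout and from 34515 to 36187 CPM in wild-type libraries, and the counts of the 4 pancreatic acinar markers were too low to be tested.

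The 9 genes lie on 5 chromosomes, and RefSeq gives 14 start sites for them in GRCm38.p6, which is mm10, the build the authors used. Windows from 250 bases before to 50 bases after each start were searched on both strands for the core of the TCF/LEF site (the words CTTTGAA or CTTTGAT and the words CTTTGTA or CTTTGTT), because TCF7L2 is the factor deleted. A match was found in 3 of the 14 windows, 1 each of *Foxa1*, *Foxa2* and *Nr5a2*, beside 16.9% of all 32851 RefSeq windows (5544). The 3 windows are shown with the matches in capitals, and *Foxa3*, the factor furthest below 0 in the comparison, is shown for its start site, with no match. *Hnf4a* is shown at the downstream of its start sites with the 2 matches to the HNF1 core (GTTAAT, on the minus strand of the window) in capitals, since HNF1 and HNF4 factors bind each other's genes. That core was found in 7.1% of all windows.
*Foxa1*, chr12:57546062-57546361, minus strand: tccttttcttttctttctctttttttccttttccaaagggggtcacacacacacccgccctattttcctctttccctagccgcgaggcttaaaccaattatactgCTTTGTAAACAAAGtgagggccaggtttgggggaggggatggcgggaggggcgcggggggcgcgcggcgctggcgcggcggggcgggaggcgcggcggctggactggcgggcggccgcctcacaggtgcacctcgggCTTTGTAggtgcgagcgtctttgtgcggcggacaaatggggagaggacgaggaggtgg
*Foxa2*, chr2:148045415-148045714, minus strand: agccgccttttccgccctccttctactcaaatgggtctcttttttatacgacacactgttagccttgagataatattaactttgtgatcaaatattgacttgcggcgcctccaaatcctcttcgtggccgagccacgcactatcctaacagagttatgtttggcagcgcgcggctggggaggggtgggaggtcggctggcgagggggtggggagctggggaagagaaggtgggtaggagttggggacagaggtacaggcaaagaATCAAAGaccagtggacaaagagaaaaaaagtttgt
*Nr5a2*, chr1:136953581-136953880, minus strand: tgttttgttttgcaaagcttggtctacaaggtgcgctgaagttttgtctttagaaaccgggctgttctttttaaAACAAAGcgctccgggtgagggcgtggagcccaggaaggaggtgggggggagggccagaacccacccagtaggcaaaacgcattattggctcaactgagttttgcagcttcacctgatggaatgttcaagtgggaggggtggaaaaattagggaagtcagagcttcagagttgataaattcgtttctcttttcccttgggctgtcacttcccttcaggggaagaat
*Foxa3*, chr7:19023490-19023789, minus strand: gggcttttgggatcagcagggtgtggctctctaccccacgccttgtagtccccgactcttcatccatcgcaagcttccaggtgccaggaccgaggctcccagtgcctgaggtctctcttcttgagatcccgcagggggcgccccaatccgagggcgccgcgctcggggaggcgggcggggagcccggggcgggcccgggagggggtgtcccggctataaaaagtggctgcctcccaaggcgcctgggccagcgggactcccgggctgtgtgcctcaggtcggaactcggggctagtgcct
*Hnf4a*, chr2:163546905-163547204, plus strand: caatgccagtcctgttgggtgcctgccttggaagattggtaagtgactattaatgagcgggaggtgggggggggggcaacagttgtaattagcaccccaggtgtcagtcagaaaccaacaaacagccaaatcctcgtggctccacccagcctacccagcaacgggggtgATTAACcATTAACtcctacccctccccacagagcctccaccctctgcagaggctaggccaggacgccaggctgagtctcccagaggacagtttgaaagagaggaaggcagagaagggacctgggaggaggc

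With the start site counted as position 0, the *Foxa1* window held 3 matches to the TCF/LEF core, beginning at −145, −138 and −8. A match to the FOXA core (TGTTTAC or TGTTTGC, found in 8.48% of all windows) began at −141 and overlapped the first and the second of them. In *Nr5a2* the match began at −176, and in *Foxa2* at 14. A match is a run of letters and does not show that a factor binds there.

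None of the 9 factors passed the test between *Alb-Cre;Tcf7l2* f/f and wild-type liver. At an adjusted *p* under 0.05 from edgeR, 0 were higher and 0 lower, beside 0.448% of all tested genes (63 of 14076). At an unadjusted *p* under 0.05 there was 1 of 9, *Foxa3*, beside 13.5% of all tested genes, and DESeq2 called 0 of 9 beside 3.26%. The log2 fold changes were positive for 7 factors and negative for 2, beside 6746 positive and 7330 negative of all 14076 tested genes. Their median was 0.14 for the factors, beside −0.017 over all tested genes. The median size without sign was 0.24 for the factors, beside 0.23 over all tested genes. The numbers of factors under each threshold lie near the background, so they are no result particular to the factors. The split by sign was not tested.

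**Figure D1:**
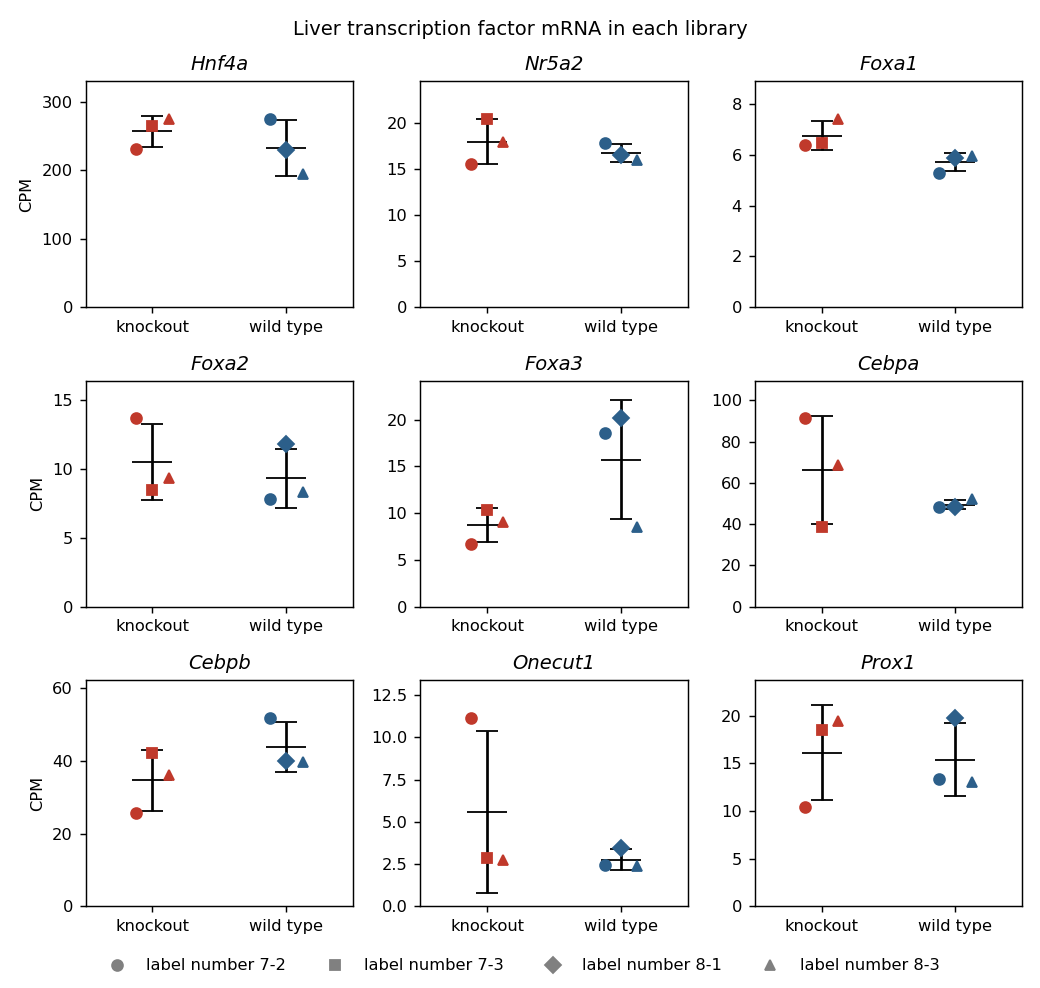
CPM (vertical axes, starting at 0) of each of the 9 factors in the 3 knockout libraries (red, left) and the 3 wild-type libraries (blue, right), with the mean and SD as black bars and the label number as the marker. Knockout library 7-2 stands at 11.1 CPM of *Onecut1* while the other 5 libraries lie between 2.38 and 3.46, and *Foxa1* is the gene whose groups do not overlap.

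*Hnf4a*, which encodes the nuclear receptor that drives most hepatocyte gene expression (NM_008261; chromosome 2, 163506811 to 163572907, plus strand), stood at 231, 264 and 275 CPM in knockout libraries 7-2, 7-3 and 8-3, against 275, 229 and 194 CPM in wild-type libraries 7-2, 8-1 and 8-3. Both genotypes reached the same top value and the groups overlapped. The log2 fold change was 0.14 (SE 0.18, 95% interval −0.27 to 0.55, adjusted *p*=0.764 from edgeR), so in fold terms the interval ran from 0.83 to 1.47. The gene overlaps *Hnf4aos*, an antisense long non-coding RNA. *Hnf4aos* had 0.71, 0.58 and 0.79 CPM in the knockout libraries and 1.02, 0.16 and 0.56 CPM in the wild-type libraries, far below *Hnf4a*. The libraries keep the strand, but whether the counting used it is not given in the sources used here. *Nr5a2*, which encodes LRH-1, a nuclear receptor of bile acid synthesis and glucose phosphorylation genes (NM_030676; chromosome 1, 136842562 to 136960448, minus strand), stood at 15.6, 20.5 and 17.9 CPM in knockout against 17.8, 16.5 and 15.9 CPM in wild-type libraries. The wild-type values lay inside the knockout range. Its log2 fold change was 0.10 (SE 0.15, 95% interval −0.23 to 0.43, adjusted *p*=0.798), and it was −0.0022 without knockout library 7-3.

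The FOXA genes encode pioneer factors, and none of them was called by edgeR or DESeq2. *Foxa1* (NM_008259; chromosome 12, 57540628 to 57548029, minus strand) stood at 6.39, 6.45 and 7.42 CPM in knockout against 5.30, 5.88 and 5.95 CPM in wild-type libraries. Each knockout library lay above each wild-type library, by a small margin (log2 fold change 0.24, SE 0.15, 95% interval −0.10 to 0.58, and edgeR's adjusted *p*=0.514). It was the 1 factor of 9 whose groups did not overlap, beside 19.3% of all tested genes. *Foxa2*, whose product also acts in the fasting response of the liver (NM_001291065; chromosome 2, 148042877 to 148046969, minus strand), stood at 13.7, 8.47 and 9.36 CPM in knockout against 7.84, 11.8 and 8.30 CPM in wild-type libraries. The groups overlapped, with 1 high library in each. Its log2 fold change was 0.17 (SE 0.22, 95% interval −0.33 to 0.67, adjusted *p*=0.766), and it was −0.064 without knockout library 7-2.

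*Foxa3*, the remaining FOXA gene (NM_008260; chromosome 7, 19013283 to 19023539, minus strand), had the smallest *p* of the 9 factors. It stood at 6.71, 10.3 and 9.11 CPM in knockout libraries 7-2, 7-3 and 8-3, against 18.6, 20.2 and 8.48 CPM in wild-type libraries 7-2, 8-1 and 8-3. Wild-type library 8-3 lay among the knockout libraries while the other wild-type libraries were higher, so the groups overlapped. The log2 fold change was −0.85 (SE 0.30, 95% interval −1.52 to −0.19, adjusted *p*=0.261 from edgeR and 0.0843 from DESeq2). The interval excludes 0, yet the adjusted *p* misses the threshold. With each library left out in turn the log2 fold change ran from −1.16 to −0.63, and without wild-type library 8-3 the adjusted *p* was 0.0982, the lowest of these. Counting error is small beside this spread, since the 577 counts in wild-type library 8-3 allow 7.80 to 9.20 CPM and the 1234 counts in wild-type library 7-2 allow 17.5 to 19.6 CPM (exact Poisson 95% intervals, which cover counting error only).

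*Cebpa*, which encodes C/EBPα, a factor that supports gluconeogenesis and ammonia disposal and restrains hepatocyte division (NM_001287514; chromosome 7, 35119293 to 35121928, plus strand), stood at 91.4, 38.8 and 68.8 CPM in knockout against 48.2, 48.2 and 52.0 CPM in wild-type libraries. The wild-type libraries were close together, and the knockout libraries lay on both sides of them. The log2 fold change was 0.42 (SE 0.26, 95% interval −0.16 to 1.01, adjusted *p*=0.508 from edgeR), and 0.12 without knockout library 7-2. *Cebpb*, which encodes C/EBPβ, a factor of the acute phase response and of liver regeneration (NM_009883; chromosome 2, 167688915 to 167690432, plus strand), stood at 25.7, 42.2 and 35.9 CPM in knockout against 51.8, 39.8 and 39.6 CPM in wild-type libraries. The groups overlapped, with knockout library 7-2 lowest and wild-type library 7-2 highest. Its log2 fold change was −0.34 (SE 0.20, 95% interval −0.79 to 0.12, adjusted *p*=0.495).

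*Onecut1*, which encodes HNF6, a factor of liver and bile duct development (NM_008262; chromosome 9, 74861921 to 74889648, plus strand), had the largest log2 fold change of the 9, which rested on 1 library. It stood at 11.1, 2.85 and 2.75 CPM in knockout libraries 7-2, 7-3 and 8-3, against 2.44, 3.46 and 2.38 CPM in wild-type libraries 7-2, 8-1 and 8-3. The other knockout libraries lay inside the wild-type range. The log2 fold change was 1.01 (SE 0.49, 95% interval −0.09 to 2.11, adjusted *p*=0.407 from edgeR), and 0.017 without knockout library 7-2. That library held 944 counts of the gene, which allow 10.4 to 11.9 CPM, and was 3.22-fold above the next library. A jump of that size over all other libraries was seen in 7 of 14076 tested genes in knockout library 7-2, and in 7 to 12 genes in each of the others. *Prox1*, which encodes a homeobox factor that binds HNF4A and also marks lymphatic endothelium (NM_008937; chromosome 1, 190118035 to 190170827, minus strand), stood at 10.4, 18.5 and 19.5 CPM in knockout against 13.4, 19.7 and 13.0 CPM in wild-type libraries. The groups overlapped over most of their range. Its log2 fold change was 0.07 (SE 0.25, 95% interval −0.50 to 0.63, adjusted *p*=0.938), and it lay between −0.093 and 0.30 with each library left out in turn.

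**Figure D2:**
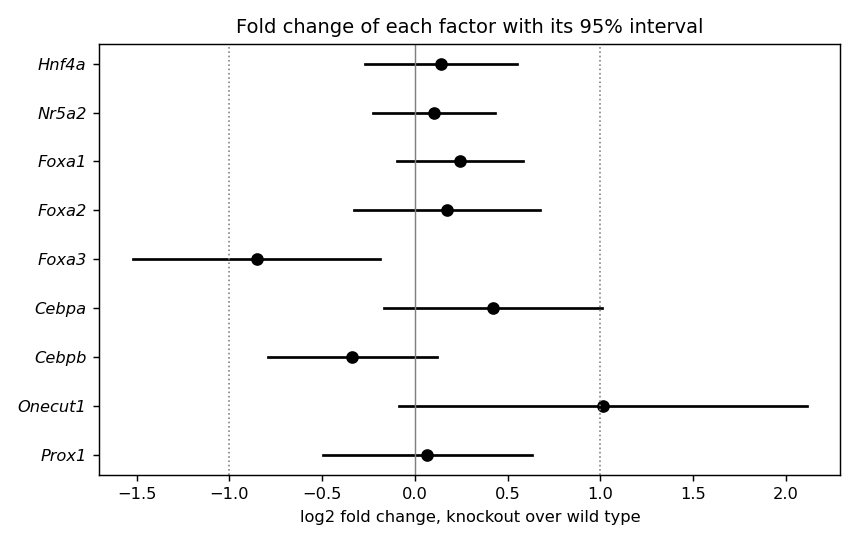
Log2 fold change of knockout over wild type (horizontal axis) for each factor, with the point at the estimate and the line spanning the 95% interval from edgeR. Dotted lines mark a 2-fold difference either way: 6 intervals lie between them, those of *Foxa3*, *Cebpa* and *Onecut1* cross one, and that of *Foxa3* excludes 0.

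A *p* that misses the threshold does not show equal levels, so the width of each interval was read as well. The 95% interval lay within a 2-fold difference either way for 6 of the 9 factors (*Hnf4a*, *Foxa1*, *Foxa2*, *Cebpb*, *Nr5a2* and *Prox1*), beside 69.3% of all tested genes. For *Cebpa* it reached a 2.02-fold higher level, for *Onecut1* a 4.33-fold higher level, and for *Foxa3* it reached down to 0.35 of the wild-type level. Differences of that size were not excluded for these 3 genes.

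Knockout library 7-2 was the extreme library for most of the factors. It was the highest of the 6 libraries for *Foxa2*, *Cebpa* and *Onecut1* and the lowest for *Foxa3*, *Cebpb*, *Nr5a2* and *Prox1*, which makes 7 of 9 factors, beside 24.3% of all tested genes for which it was the highest or the lowest. For the other libraries the number was 1 to 4 of 9, beside 34.1% to 37.8% of all tested genes. Relative to the wild-type mean, *Onecut1* was 2.01 higher on the log2 scale in this library, *Cebpa* 0.88 and *Foxa2* 0.55, while *Foxa3* stood at −1.23, *Cebpb* at −0.77 and *Prox1* at −0.57. *Hnf4a* stood at −0.0084 there. The same library had the lowest share of *Mup* counts, 23.5%, and the part of that in these values was not tested. The pattern was noticed in the values and has no test.

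**Figure D3:**
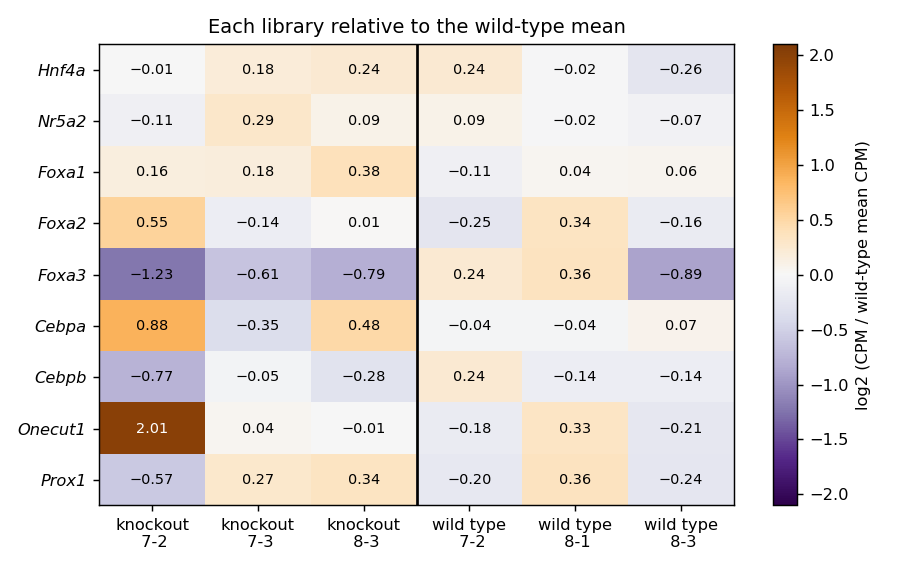
Log2 ratio of each library's CPM to the mean CPM of the 3 wild-type libraries, with knockout libraries left of the black line and wild-type libraries right of it, 1 row per factor. *Onecut1* at 2.01 and *Foxa3* at −1.23 in knockout library 7-2 are the extremes, and *Hnf4a* stays between −0.26 and 0.24 in every library.

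Ranks within a library do not depend on scaling between libraries. Among the 14076 tested genes ranked by counts, *Hnf4a* stood at percentiles 97.8, 98.0 and 98.4 in knockout and 98.0, 97.9 and 97.2 in wild-type libraries. *Nr5a2* stood at 73.6, 78.4 and 76.3 in knockout and 76.0, 75.0 and 74.2 in wild-type libraries. *Foxa1* kept its separation by rank, at percentiles 54.7, 55.4 and 58.2 in knockout and 51.6, 52.6 and 53.5 in wild-type libraries. For *Onecut1* they were 67.0, 39.4 and 38.6 in knockout and 36.5, 41.6 and 35.6 in wild-type libraries. The ranks of *Hnf4a* and *Nr5a2* overlapped between genotypes, as their CPM did.

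Levels were compared between the factors per kilobase of the GENCODE canonical transcript (1504 bases for *Cebpb* to 8210 bases for *Prox1*). *Hnf4a* was the most abundant in both genotypes, at 58.4 ± 5.16 CPM per kilobase in knockout and 52.9 ± 9.23 in wild type (SD, n = 3 each). *Cebpb* had 23.0 ± 5.55 in knockout and 29.1 ± 4.63 in wild type, and *Cebpa* 25.3 ± 10.04 in knockout and 18.8 ± 0.828 in wild type, so their order by mean differed between genotypes, while in knockout their ranges overlapped. *Foxa3* followed, at 4.26 ± 0.901 in knockout and 7.69 ± 3.10 in wild type. *Nr5a2* (3.49 in knockout, 3.25 in wild type) and *Foxa2* (3.27 in knockout, 2.90 in wild type) overlapped in both genotypes. So did *Prox1* (1.96 in knockout, 1.87 in wild type) and *Foxa1* (2.09 in knockout, 1.77 in wild type). *Onecut1* came last, at 1.00 ± 0.865 in knockout and 0.495 ± 0.109 in wild type. In knockout alone, *Foxa3* also overlapped *Nr5a2* and *Foxa2*, and *Onecut1* overlapped *Foxa1* and *Prox1*.

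Across the 6 libraries each factor was set beside 43 other liver transcription factor genes by Pearson's *r* of log2 CPM, which describes 6 points that share libraries and scaling, and has no test because the highest of many was taken. *Foxa3* was most like *Zbtb20*, a repressor of the fetal liver gene *Afp* (*r* = 0.98), and *Foxa1* most like *Thrb*, a thyroid hormone receptor (*r* = 0.96). *Cebpa* was most like *Nr1i2*, the xenobiotic receptor PXR (*r* = 0.95), and *Cebpb* most like its paralogue *Cebpd* (*r* = 0.92). *Prox1* was most like *Ddit3*, a stress-induced C/EBP family member (*r* = 0.91). *Nr5a2* and *Hnf4a* were both most like *Zhx3*, a zinc finger and homeobox gene (*r* = 0.90 and 0.88), and *Foxa2* and *Onecut1* were most like each other (*r* = 0.88). Knockout library 7-2 is the highest library of both *Foxa2* and *Onecut1*.

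Other transcriptional regulators of the liver gave no call by edgeR either. Of 8 tested paralogues of the factors, 0 were called by edgeR or DESeq2 and 1 had an unadjusted *p* under 0.05, with a median log2 fold change of 0.014, and *Cebpe* (C/EBPε) had the smallest *p* (−0.77, adjusted *p*=0.195), with each knockout value below each wild-type value. Of 27 other liver transcription factor genes, edgeR called 0 and DESeq2 1, with a median of 0.07, and 1 higher and 2 lower had an unadjusted *p* under 0.05. Those with the smallest *p* were *Nr0b2*, which encodes the bile acid-induced repressor SHP (−0.66, adjusted *p*=0.158 from edgeR and 0.0376 from DESeq2), and *Atf5*, a factor of mitochondrial and amino acid stress (−0.51, adjusted *p*=0.221). Of 13 cofactors, 0 were called by either tool and 1 had an unadjusted *p* under 0.05, with a median of 0.077, and *Ncoa1* (steroid receptor coactivator SRC-1) stood at 0.45 (adjusted *p*=0.228).

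Lists of genes known to be bound or driven by the factors gave no call by edgeR either. These lists share genes with each other, and some with the periportal, pericentral and acute phase lists. Of 16 HNF4A targets, edgeR called 0 and DESeq2 1, with 3 at an unadjusted *p* under 0.05 (2 higher, 1 lower), and the median log2 fold change was 0.15. *Cyp8b1*, the sterol 12-hydroxylase of bile acid synthesis, stood at a log2 fold change of 0.75 (adjusted *p*=0.213 from edgeR). Of 9 NR5A2 targets, edgeR called 0 and DESeq2 2, with 4 at an unadjusted *p* under 0.05 (2 each way) and a median of 0.059.

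Of 8 FOXA targets, edgeR called 0 and DESeq2 1, with 2 lower at an unadjusted *p* under 0.05 and a median of −0.020. *Afp*, the fetal plasma protein α-fetoprotein, stood at 0.43, 0.21 and 0.22 CPM in knockout against 0.92, 0.94 and 1.07 CPM in wild-type libraries, at low counts and with the groups apart (−1.77, SE 0.38, adjusted *p*=0.0927 from edgeR and 0.00327 from DESeq2). *Igfbp1*, an insulin-repressed FOXA target, stood at −1.26 (adjusted *p*=0.257) with overlapping groups. Of 10 C/EBP targets, 0 were called by either tool and 2 were lower at an unadjusted *p* under 0.05, with a median of 0.022, and *Saa1* and *Orm1*, which are acute phase genes, had the smallest *p* (−2.94 and −0.88, with edgeR's adjusted *p*=0.308 and 0.358). Of 7 tested fetal liver genes, edgeR called 0 and DESeq2 1, which is *Afp*, and the median was −0.025, with *Igf2* next by *p* (adjusted *p*=0.459 from edgeR, groups overlapping).

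Of 25 genes for secreted proteins and amino acid enzymes of the hepatocyte, 0 were called by edgeR or DESeq2, 1 was lower at an unadjusted *p* under 0.05 and the median log2 fold change was −0.064. For 24 of the 25 the 95% interval lay within a 2-fold difference. The exception was *Hpx*, which encodes the haem-binding protein haemopexin (−0.62, 95% interval −1.21 to −0.04, adjusted *p*=0.344 from edgeR), and *Tdo2*, tryptophan dioxygenase, came next by *p*, at 0.41 (adjusted *p*=0.48).

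The zonated genes of the same livers are given for scale. Among the pericentral genes, 12 of 22 passed edgeR's test as lower and 0 as higher, with a median log2 fold change of −2.02, which was the same with *Sp5*, at 0 counts in every knockout library, set to its bound of at least 52.4-fold lower. The called genes included the transcription factor gene *Tbx3*, at 1.09, 1.37 and 1.13 CPM in knockout against 3.25, 7.82 and 4.54 CPM in wild-type libraries (−2.13, SE 0.32, adjusted *p*=0.026). They also included *Gulo*, an enzyme of ascorbate synthesis (−1.50, adjusted *p*=0.00285), *Rhbg*, an ammonium transporter (−4.93, adjusted *p*=0.00943), and *Lgr5*, a receptor of the Wnt pathway (−2.34, adjusted *p*=0.046). With 1 library left out at a time, 9 to 12 pericentral genes were called lower by edgeR. *Lgr5* was then called in none of the 6 fits (adjusted *p*=0.0563 to 0.164), *Tbx3* only without wild-type library 7-2 (adjusted *p*=0.00908, against 0.055 to 0.12 without any other library), and *Rhbg* lost its call without wild-type library 8-1 (adjusted *p*=0.0551), while *Gulo* kept its call in each of the 6 (adjusted *p*=0.00488 to 0.0221). Over the other alternatives, 8 (replicate block on the whole label number) to 16 (DESeq2) pericentral genes were called lower. *Tbx3*, *Rhbg* and *Lgr5* lost their calls under that block (adjusted *p*=0.0965, 0.133 and 0.196) and with quantile normalisation and limma (adjusted *p*=0.105, 0.171 and 0.0786), and *Gulo* lost its call with library sizes alone (adjusted *p*=0.0525). *Tbx3* and *Lgr5* also lost theirs with limma-voom (adjusted *p*=0.0543 and 0.0513). The same 2 genes missed the threshold in edgeR with a replicate block on the first label number (adjusted *p*=0.0814 and 0.102). Of 20 periportal genes, edgeR called 0 and DESeq2 2, with 3 at an unadjusted *p* under 0.05 (2 higher, 1 lower) and a median of 0.19, and *Gls2*, liver glutaminase, stood at 205, 209 and 221 CPM in knockout against 124, 119 and 137 CPM in wild-type libraries (0.74, adjusted *p*=0.0877 from edgeR and 0.000167 from DESeq2). The difference between the 9 factors and these lists was not tested.

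**Figure D4:**
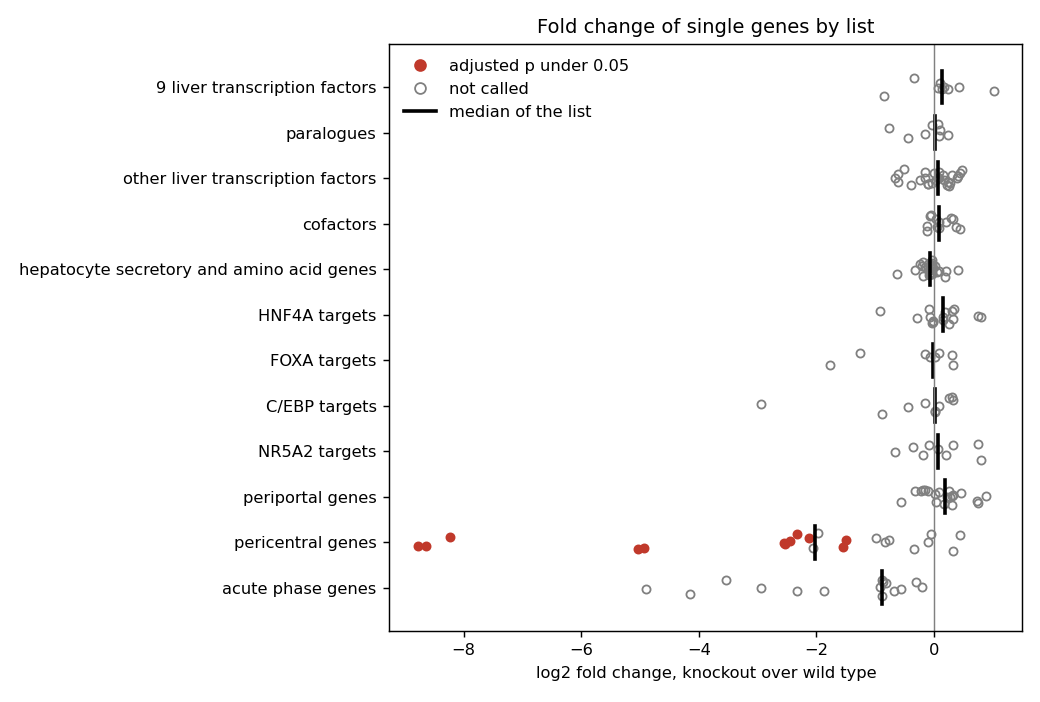
Log2 fold change of knockout over wild type (horizontal axis) for each tested gene of 12 lists, with genes called by edgeR at an adjusted *p* under 0.05 as filled red circles, the others open, and the median of each list as a black bar. Called genes appear in the pericentral list, with its median at −2.02, while the median of the 9 liver transcription factors is at 0.14. The position of *Sp5* near the left end is set by the prior count that edgeR adds.

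The acute phase, in which C/EBPβ acts, was uneven among wild-type livers. All 15 acute phase genes had a negative log2 fold change, with a median of −0.88, and 13 had an unadjusted *p* under 0.05, while 0 passed at an adjusted *p* under 0.05 from edgeR and 5 by DESeq2. In 4 of the 15 (*Fga*, *Fgb*, *Hp* and *Itih3*) each knockout value lay below each wild-type value. Over all tested genes, 19.3% had groups apart in either direction. *Lcn2*, lipocalin 2, stood at 4.32, 16.0 and 7.49 CPM in knockout libraries 7-2, 7-3 and 8-3, against 6.18, 477 and 350 CPM in wild-type libraries 7-2, 8-1 and 8-3. Wild-type library 7-2 lay among the knockout libraries and the other wild-type libraries were far above them. *Cebpb* did not share that split, being highest in wild-type library 7-2 at 51.8 CPM, with 39.8 and 39.6 CPM in the others. Nor did *Foxa3*, which was low in wild-type library 8-3. These are mRNA levels, and the part of either factor in the acute phase levels was not tested.

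Some of the factors are also made by other liver cells, so markers of those cells are given beside them. For *Onecut1* and *Foxa2*, which bile duct cells also express, 7 cholangiocyte markers were tested, and 6 of them were negative. Their summed level ran from 34.0 to 39.6 CPM in knockout and from 36.6 to 58.8 CPM in wild-type libraries. *Spp1* made up most of each sum, ranging from 18.9 to 44.1 CPM over the 6 libraries. The lowest sum, 34.0 CPM, belonged to knockout library 7-2, where *Onecut1* was highest, but this order leans on *Spp1*. Without *Spp1* that library was no longer the lowest. *Cftr* was too low to be tested. For *Prox1*, 5 lymphatic endothelial markers summed to 8.30 to 9.31 CPM in knockout and 6.47 to 7.58 CPM in wild-type libraries, with 4 of 5 positive. Most of each sum was *Flt4*, at 6.74, 7.35 and 7.56 CPM in knockout and 5.67, 6.44 and 5.70 CPM in wild-type libraries. *Flt4* was the 1 marker of these 5 whose groups did not overlap, so the separation of the sums leans on it. Sinusoidal endothelial markers were positive in 12 of 12, with sums of 124 to 131 CPM in knockout and 105 to 107 CPM in wild-type libraries, and stellate cell markers in 8 of 11, with sums of 103 to 108 CPM in knockout and 66.2 to 83.1 CPM in wild-type libraries. Kupffer cell markers were negative in 10 of 11, with sums of 77.2 to 93.0 CPM in knockout and 91.5 to 113 CPM in wild-type libraries. Of these markers edgeR called 0 and DESeq2 called 2, both stellate cell markers that were higher, and 6 stellate cell markers were higher at an unadjusted *p* under 0.05. The part of other cells in the levels of the factors was not tested.

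Calls for the 9 factors changed with scaling, together with those for all genes. With library sizes alone, and no TMM factors, the median over all tested genes moved to 0.61 on the log2 scale, and 4 of 9 factors were called higher (*Foxa1*, *Foxa2*, *Cebpa* and *Onecut1*), beside 20.9% of all tested genes called higher. The median of the factors was 0.74 under that scaling, which is 0.13 above the median of all genes, against 0.16 above it with TMM factors. *Cebpb* stood at 0.23 under that scaling, and relative to the median of all genes it stood at −0.38, against −0.32 with TMM factors. *Foxa3* stood at −0.85 relative to that median with library sizes alone, against −0.84 with TMM factors.

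**Figure D5:**
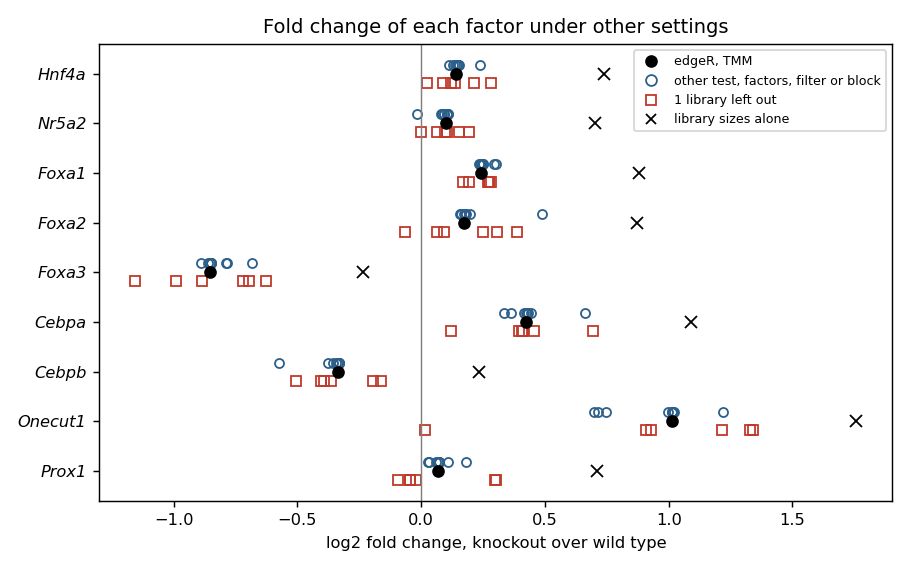
Log2 fold change of knockout over wild type (horizontal axis) for each factor under edgeR with TMM factors (filled circles), under 10 other tests, factors, filters or blocks (open blue circles), with each library left out (red squares) and with library sizes alone (crosses). Crosses lie right of the other marks for each factor, and leaving out knockout library 7-2 takes *Onecut1* to 0.017.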

How the data were processed

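The deposited values are counts that the authors obtained with Bedtools from unique and multiple alignments, with no normalisation. The submitters' processing notes name TopHat and mm10, and the aligner's version is not given in the sources used here. A library stands for 1 mouse, since the study gives 3 mice per genotype.

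The quasi-likelihood test of edgeR 4.0.16 (with limma 3.58.1 in R 4.3.3) set knockout against wild type on the 14076 genes that filterByExpr kept (minimum count 10, minimum total 15), using TMM factors. Adjusted *p* values are Benjamini-Hochberg values over these genes, called under 0.05. SE and 95% intervals were derived from the test's *p* and degrees of freedom. The biological coefficient of variation was 23.9%. No 2 libraries were copies of each other. Reads carry no molecular identifiers.

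The members and gene lists were chosen with earlier results of these data known. Named genes are the 9 factors, from each other list the called genes or up to 2 with the smallest *p*, overlapping genes, the most alike transcription factor and *Tcf7l2*; not every called pericentral gene is repeated, and *Alb* was added as a check of the tissue. Some genes that this rule names are not reported here. Alternatives were DESeq2 1.42.0, limma-voom, quantile normalisation, upper-quartile and RLE factors, unadjusted library sizes, scaling without *Mup* genes, other filters, replicate blocks and each library left out. Promoter windows and gene positions are RefSeq's (GRCm38.p6). Transcript lengths are those of GENCODE vM39, used for lengths alone. Genes that overlap *Foxa1*, *Onecut1* and *Prox1* on the RefSeq annotation were not analysed here.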

Additional observations from a re-analysis of the deposited data

How the results depend on the processing

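No factor was called by edgeR, DESeq2 or limma under any alternative other than library sizes alone, which called 4 of 9, moved the median of all genes to 0.61 on the log2 scale, moved the factors' median to 0.74, took *Cebpb* to 0.23 and called 3024 genes in all. All genes called, 63 in the main test, numbered 440 with DESeq2, 96 with no filter on low counts and 32 with quantile-normalised counts and limma. With each library left out they numbered 24 (without wild-type library 8-1) to 87 (without wild-type library 7-2), 37 without wild-type library 8-3, 30 without knockout library 7-2 and 40 without knockout library 8-3. The median of the factors then ran from 0.064 to 0.27, *Foxa2* from −0.064 to 0.39, *Nr5a2* from −0.0022 to 0.19 and *Prox1* from −0.093 to 0.30. With each library left out, edgeR gave 0 to 4 of the 9 factors an unadjusted *p* under 0.05, with the 4 found without knockout library 7-3. The share of all tested genes at that threshold was not worked out for these fits. *Hnf4a*, *Foxa1*, *Foxa3*, *Cebpa* and *Onecut1* kept their sign in all 17 alternatives.

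Only label numbers 7-2 and 8-3 occur in both genotypes, and the labels do not say what the numbers mark. The deviations of same-numbered libraries from their group means correlated at 0.0030 and −0.0022 over genes. A value over all genes cannot show a link confined to some of them. The main test used no block. A replicate block on the whole number called 49 genes and 0 factors and took *Nr5a2* to −0.015. A replicate block on the first part of the number called 39 genes and 0 factors. Between libraries numbered 7 (2 knockout, 1 wild-type) *Foxa3* differed by −1.16 and *Onecut1* by 1.21 on the log2 scale, and between those numbered 8 (1 knockout, 2 wild-type) by −0.52 and −0.062. With 3 mice per genotype, differences in single factors can go uncalled, and not only those under 2-fold. *Onecut1*, at a log2 fold change of 1.01, and *Afp*, at −1.77, were not called by edgeR (adjusted *p*=0.407 and 0.0927).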
